A study of Drosophila melanogaster with 8 samples.

Results

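The proteasome is the protease that degrades most proteins marked with ubiquitin. Its genes were taken from the count table by symbol: those beginning with Prosalpha or Prosbeta (the core particle) and those beginning with Rpn or Rpt followed by a digit (the regulatory particle). Of the 15682 gene rows, 47 met this rule. They comprised 14 core subunits (7 in the alpha ring and 7 in the beta ring), 18 regulatory subunits (10 in the base and 8 in the lid) and 15 paralogues whose symbols end in T or R, with or without a number. The paralogues were treated apart, and another gene of that kind, Prosalpha4T1, was not analysed here.

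RNA was sequenced from dissected eye disc tumours of late third-instar Drosophila melanogaster larvae, with 4 libraries for each of 2 diets. Animals were raised either on a control diet (CD) with 0.15 M sucrose and dissected on day 8, or on a high dietary sucrose diet (HSD) with 1.0 M sucrose and dissected on day 14. Tumours of both diets carried ras1 G12V, an activated Ras1 expressed under UAS, in GFP-labelled clones homozygous for csk Q156Stop, a premature stop in Csk, the kinase that restrains Src. The clones were made by the MARCM technique with a FLP recombinase driven by an eyeless enhancer, so tissue outside the clones was not transformed, and the dissected tissue was pooled. Age at dissection went wholly with diet, and the 2 cannot be told apart. The study describes the samples as biologically independent, while the labels give only replicate numbers, so p-values measure the spread between these libraries.

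As background, the core particle is a barrel of stacked rings: the outer alpha rings gate the entry, and the inner beta rings hold the proteolytic sites. The regulatory particle caps the barrel. Its base holds a ring of 6 ATPases, Rpt1 to Rpt6, which unfold the substrate and thread it into the core, and its lid removes the ubiquitin chain. In flies and mammals, a fall in proteasome activity is known to induce the genes of all subunits together through a transcription factor of the Nrf family, cnc in the fly, and many of the paralogues are known in Drosophila for expression in the male germline.

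The tissue itself differed between the diets. Of 12 neuronal markers, all were lower in HSD (median log2 fold change -4.39), with a summed level of 2203 to 2697 CPM (counts per 1000000 counts) in CD and 147.4 to 248 CPM in HSD, and 6 of 8 eye disc markers were lower (median -1.24). The eye genes ey (log2 fold change 0.04) and Optix (0.12) did not pass the test, while gl, which acts in differentiating photoreceptors, fell by 2.27. Salivary gland glue genes summed to 4600 CPM in CD replicate 1 and to at most 254.8 CPM in the other 7 libraries. Fat body markers summed to between 1092 and 1941 CPM in CD and between 764.5 and 2858 CPM in HSD, highest in HSD replicate 4, and of these 5 markers only Lsp1alpha was called (log2 fold change -3.48). Of 7 muscle markers, 4 were lower (Mhc, Act57B, up and Tm2, with a median of -2.03 over the list) and 2 higher (bt 1.08 and Mlc2 0.93), while sls made up most of their sum, which overlapped between diets (353.7 to 435.1 CPM and 330.9 to 452.4 CPM). Over all genes tested, 26.2% were lower in HSD and 25.9% higher. The share of fat body markers that fell and that of muscle markers that rose were near these values. The part of these tissues in the values below was not tested, and in bulk tissue fewer cells of a type and less RNA per cell cannot be told apart. Libraries held 11558860 to 19963565 counts.

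Transcripts of the proteasome subunits were more abundant in HSD tumours almost without exception. Of the 32 subunits without a T or R suffix, 31 rose and none fell at an adjusted p under 0.05 (edgeR's quasi-likelihood test, Benjamini-Hochberg adjustment over the 9257 genes tested), against 25.9% of all genes tested that were higher in HSD and 26.2% that were lower (52.1% in either direction). The exception, Prosalpha1, also had a higher mean in HSD. In 31 of the 32, every HSD library lay above every CD library, which was so for 24.9% of all genes tested. The rises were small and alike: the median log2 fold change was 0.43, or 1.35-fold, within a range of 0.21 to 0.90 and with an SD among subunits of 0.14, beside a median of 0 and an SD of 1.59 over all genes tested. Each subunit lay between the 63.6 and the 89.7 percentile of all genes by log2 fold change.

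Summed over the 32 subunits, the level was 6004, 6218, 6412 and 6304 CPM in CD replicates 1 to 4 and 8620, 8271, 8656 and 7955 CPM in HSD replicates 1 to 4. The lowest HSD library thus stood above the highest CD library by more than the whole spread within either diet. The means were 6234 ± 173 CPM (SD, n = 4) in CD and 8375 ± 329.7 CPM (SD, n = 4) in HSD, a ratio of 1.343. As a share of all counts, without any scaling, the subunits took 0.630% to 0.667% of a CD library and 0.772% to 0.821% of an HSD library. Counts of a single subunit ranged from 737 to 9386 in a library.

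**Figure D1:**
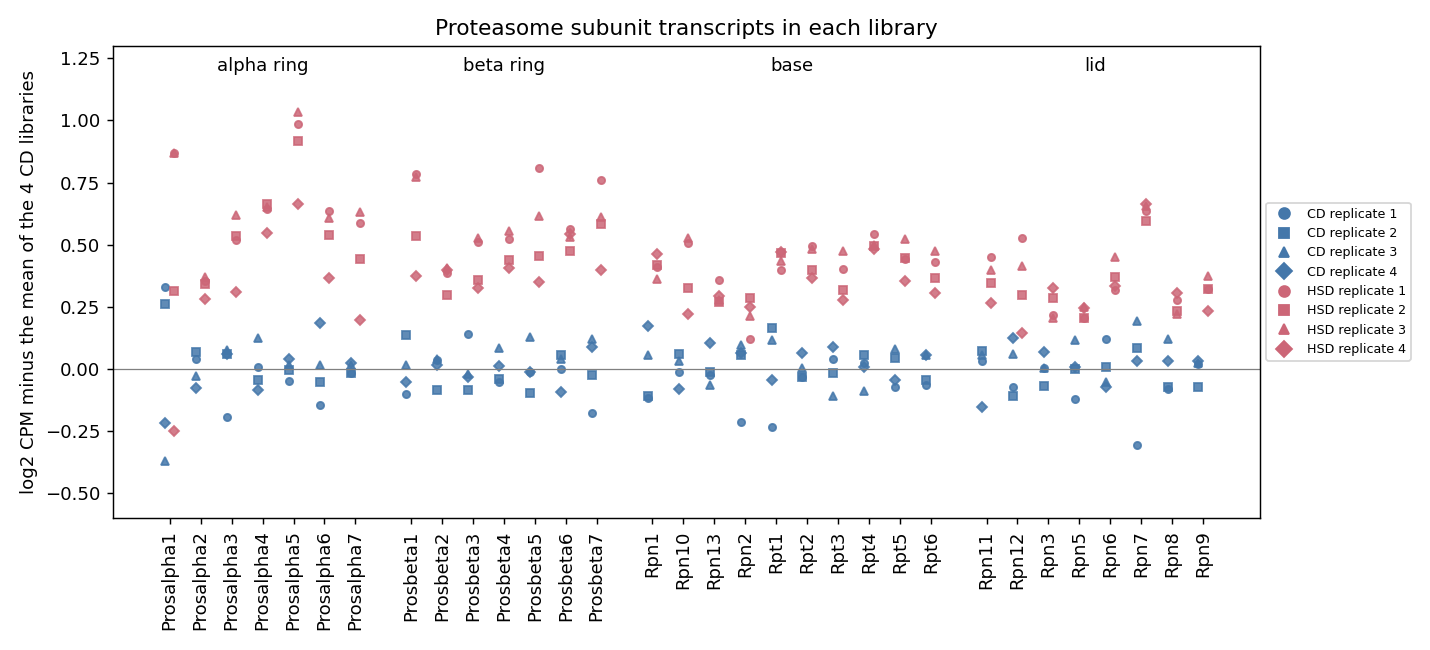
Level of each of the 32 proteasome subunits in each library, as log2 CPM minus the mean of the 4 CD libraries, with subunits arranged by alpha ring, beta ring, base and lid. Circles, squares, triangles and diamonds stand for replicates 1 to 4, CD and HSD in separate colours. In every subunit but Prosalpha1 the 4 HSD points lie above the 4 CD points, and HSD replicate 4 is often the lowest of the HSD points.

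The libraries did not contribute evenly. Among HSD libraries, replicate 4 had the lowest level for 21 of the 32 subunits, and among CD libraries replicate 1 had the lowest for 15. With both left out, 31 of the 32 subunits were called higher, 14 of the core, where Prosalpha1 was now called, and 17 of the regulatory particle, where Rpn2 no longer was. Leaving out each library in turn gave between 30 and 31.

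The rise depended on the scale more than on any library. Of 77 cytosolic ribosomal protein genes tested, 69 also rose in HSD and none fell, with a median log2 fold change of 0.33. When libraries were scaled to these genes, which moved the median of all genes by -0.35, only 5 of the 32 subunits passed the test: Prosalpha4 (log2 fold change 0.28), Prosalpha5 (0.55), Prosbeta1 (0.27), Prosbeta7 (0.23) and Rpn7 (0.28). All 5 were higher in HSD. On that scale, 8 other subunits had a log2 fold change below 0 and none was called lower. With total counts alone, which moved the median of all genes by -0.13, 25 subunits rose, 13 of the core and 12 of the regulatory particle. The statement that the subunits rose therefore holds relative to most genes, and most subunits did not pass relative to the ribosomal protein genes.

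The median rise was larger in the core particle than in the regulatory particle. Of the 14 core subunits 13 were called higher, with a median log2 fold change of 0.51 (1.42-fold) and a range of 0.34 to 0.90. All 18 regulatory subunits were called higher, with a median of 0.37 (1.29-fold) and a range of 0.21 to 0.62. Of the core subunits, 13 lay above the regulatory median and 3 (Prosalpha4, Prosalpha5 and Prosbeta1) above the highest regulatory subunit. Conversely, 6 regulatory subunits lay below the lowest core subunit, and Rpn7 alone lay above the core median. The difference between the medians, 0.14, is a description with no test. It was 0.12 to 0.18 with each library left out in turn. Scaling to ribosomal protein genes lowered both medians, to 0.16 in the core and 0.01 in the regulatory particle. A change of scale moves all genes by nearly the same amount, so the difference of 0.15 on that scale is no check on it.

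**Figure D2:**
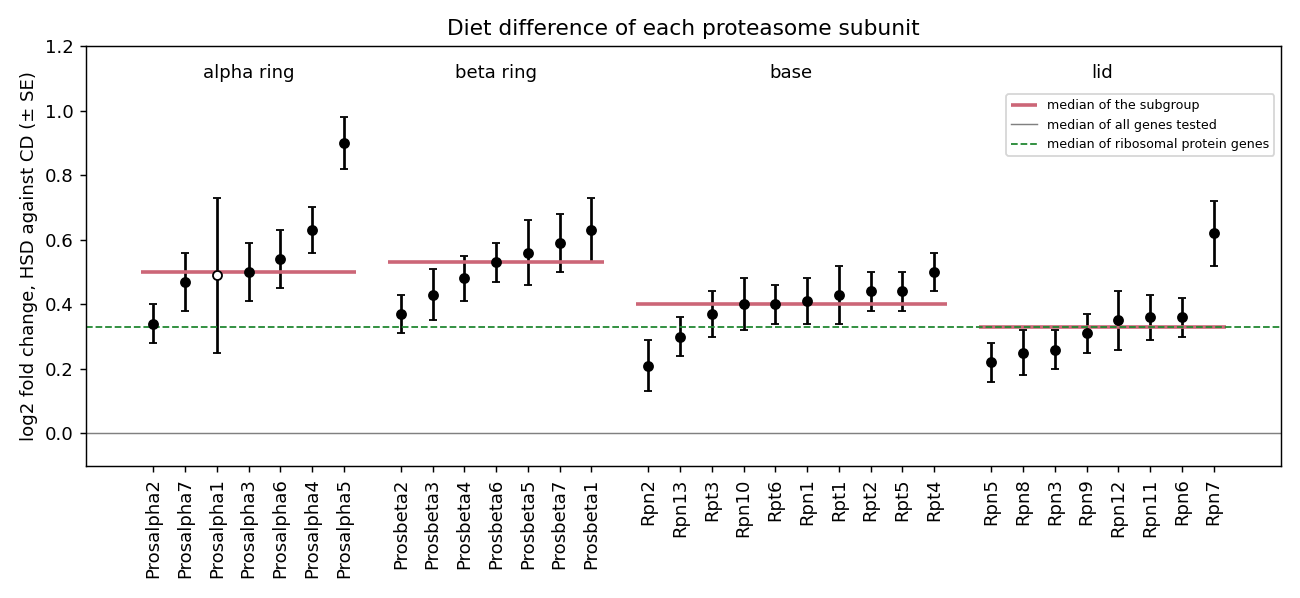
Log2 fold change of HSD against CD for each of the 32 subunits, with SE bars from the edgeR fit, arranged by subgroup. Red lines mark the subgroup medians (0.50 for the alpha ring, 0.53 for the beta ring, 0.40 for the base and 0.33 for the lid), the grey line the median of all genes tested and the green dashed line that of ribosomal protein genes. The open symbol is Prosalpha1, the only subunit that did not pass the test.

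Levels per kilobase of exon, a quantity apart from the size of the rise, can be compared between genes. Their mean was also higher in the core particle. The mean over the 14 core subunits was 162, 165, 169 and 164 CPM per kb in CD replicates 1 to 4 and 253, 232, 251 and 214 CPM per kb in HSD replicates 1 to 4. That over the 18 regulatory subunits was 122, 128, 132 and 130 CPM per kb in CD and 168, 164, 170 and 161 CPM per kb in HSD. HSD replicates 2 and 4 were lower than the other HSD libraries in the core, while the regulatory particle varied little within HSD.

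Core transcripts were thus the more abundant in both diets, with a ratio of core to regulatory level of 1.29 ± 0.0257 (SD, n = 4) in CD and 1.43 ± 0.0772 (SD, n = 4) in HSD. Within each library the ratio was 1.33, 1.29, 1.28 and 1.27 in CD and 1.50, 1.41, 1.48 and 1.33 in HSD. HSD replicate 4 and CD replicate 1 had almost the same ratio, and on summed CPM, without the correction for length, these 2 libraries overlapped (0.602 in HSD replicate 4 and 0.603 in CD replicate 1, with means of 0.584 in CD and 0.654 in HSD). In CD, 8 of the 10 subunits with the highest level per kb were core subunits, and in HSD all 10 were. Prosalpha2 was the highest of the 32 in CD (231 ± 10.4 CPM per kb, SD, n = 4). Apart from Prosalpha1, the lowest was the ubiquitin receptor Rpn13 (84.0 ± 4.57 CPM per kb, SD, n = 4).

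**Figure D3:**
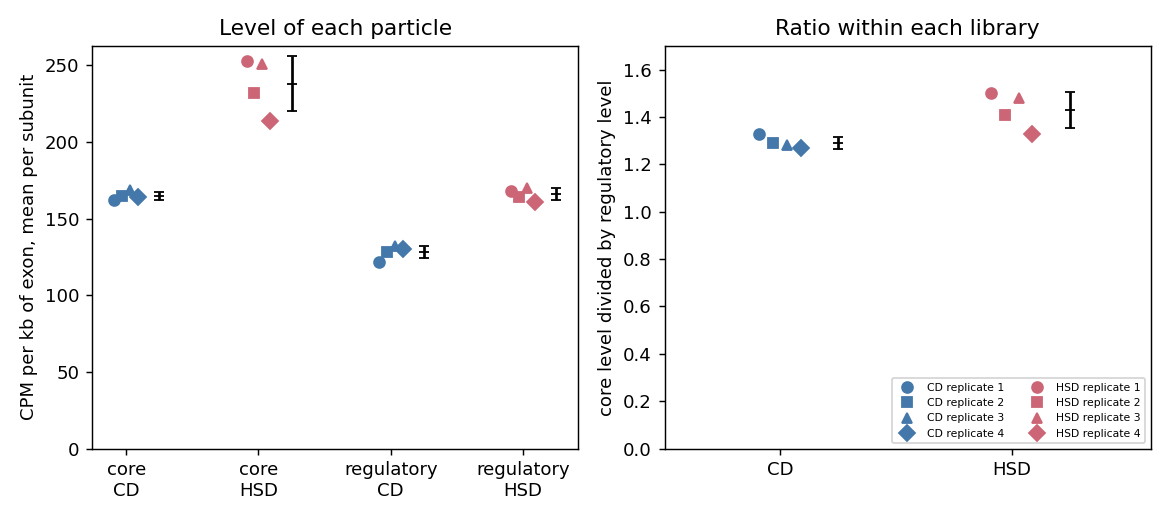
Left, the mean CPM per kb per subunit of the core and of the regulatory particle in each library; right, the ratio of core to regulatory within each library. Points are libraries and bars are mean ± SD over 4 libraries. Both particles are higher in HSD, and the ratio averages 1.29 in CD and 1.43 in HSD, with CD replicate 1 and HSD replicate 4 meeting near 1.33.

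The alpha ring, which gates the core, held both the subunit with the largest rise and the only one that was not called. Prosalpha5 (FBgn0016697) was at 130, 134, 136 and 138 CPM in CD and 266, 254, 275 and 213 CPM in HSD. CD libraries were nearly level, and the lowest HSD library was well above them. The mean went from 135 ± 3.47 to 252 ± 27.6 CPM (SD, n = 4), a log2 fold change of 0.90 (SE 0.08, 1.87-fold, edgeR adjusted p = 6.61e-06). Prosalpha5 also moved up in rank among the 32 subunits by level per kb, from 16 in CD (143 ± 3.67 CPM per kb, SD) to 4 in HSD (267 ± 29.2 CPM per kb, SD). Prosalpha2 (FBgn0086134), the smallest rise in the ring, had 218, 222, 208 and 201 CPM in CD and 271, 269, 274 and 258 CPM in HSD. Its groups were apart, with a log2 fold change of 0.34 (SE 0.06, 1.26-fold, edgeR adjusted p = 0.000628).

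Prosalpha1 (FBgn0263121) had the lowest level of the 32 subunits and the widest spread relative to its mean. It was at 80.0, 76.1, 49.2 and 54.6 CPM in CD and 116, 79.0, 116 and 53.4 CPM in HSD. The diets overlapped, since HSD replicate 4 lay within the CD range and HSD replicate 2 only just within it. The log2 fold change was 0.49 (SE 0.24, edgeR adjusted p = 0.118), close to the core median but with the largest SE of the 32 subunits. Without HSD replicate 4 it was 0.68 (edgeR adjusted p = 0.0127), and without HSD replicate 3 it was 0.35 (edgeR adjusted p = 0.294). The paralogue Prosalpha1R lies beside it on the same chromosome arm, and whether the pair share reads was not tested. The other 4 alpha subunits rose by 0.47 (Prosalpha7) to 0.63 (Prosalpha4) on the log2 scale.

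The beta ring carries the 3 proteolytic sites, and all 3 catalytic subunits rose. Prosbeta1 (FBgn0010590), which cleaves after acidic residues, was at 118, 139, 128 and 122 CPM in CD and 218, 183, 216 and 164 CPM in HSD. HSD replicates 2 and 4 were the lower pair but stood above all CD libraries. It had a log2 fold change of 0.63 (SE 0.10, 1.54-fold, edgeR adjusted p = 0.000356). Prosbeta2 (FBgn0023174), which cleaves after basic residues, was at 225, 207, 226 and 222 CPM in CD and 287, 270, 291 and 290 CPM in HSD. Its rise was the smallest in the beta ring, 0.37 on the log2 scale (SE 0.06, 1.29-fold, edgeR adjusted p = 0.000348), with little spread in either diet. Prosbeta5 (FBgn0029134), which cleaves after hydrophobic residues, was at 196, 185, 216 and 196 CPM in CD and 347, 271, 303 and 252 CPM in HSD. It rose by 0.56 on the log2 scale (SE 0.10, 1.48-fold, edgeR adjusted p = 0.000649), with the widest HSD spread of the 3. The non-catalytic Prosbeta3, Prosbeta4, Prosbeta6 and Prosbeta7 rose by 0.43, 0.48, 0.53 and 0.59. The catalytic subunits therefore lay at both ends of the ring's range, and whether they differ from each other was not tested.

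In the base, the 6 ATPases formed the tightest group of the particle, with log2 fold changes of 0.37 (Rpt3) to 0.50 (Rpt4), a median of 0.44 and an SD of 0.05. Rpt4 (FBgn0028685) was at 187, 191, 173 and 185 CPM in CD and 268, 259, 260 and 257 CPM in HSD. Both groups were narrow and far apart, giving 0.50 (SE 0.06, 1.42-fold, edgeR adjusted p = 3.34e-05). The other 12 regulatory subunits, without ATPase activity, had a median of 0.33.

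The base also held the smallest rise of the 32. Rpn2 (FBgn0028692), a large scaffold subunit, was at 357, 430, 442 and 432 CPM in CD and 450, 504, 479 and 491 CPM in HSD. CD replicate 1 stood below the other CD libraries, and HSD replicate 1 was only just above them. The log2 fold change was 0.21 (SE 0.08, 1.16-fold, edgeR adjusted p = 0.0367). It was called in 9 of 19 alternatives. The call was lost without HSD replicate 2, 3 or 4 (edgeR adjusted p of up to 0.0895), with both libraries named above left out (0.062), with either other filter on counts (0.0705 and 0.0725), and with DESeq2 size factors (0.0622), the upper quartile (0.123), total counts (0.424) or ribosomal protein genes (0.264, with the sign turned) as the scale. The other scaffold of the base, Rpn1, rose by 0.41, and the ubiquitin receptors Rpn10 and Rpn13 by 0.40 and 0.30.

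The lid had the lowest median of the 4 subgroups and the widest range in the regulatory particle. Rpn7 (FBgn0028688), a structural subunit, was at 126, 165, 178 and 159 CPM in CD and 242, 235, 245 and 247 CPM in HSD. CD replicate 1 was again the lowest library, and the HSD libraries were nearly level. Its log2 fold change was 0.62 (SE 0.10, 1.54-fold, edgeR adjusted p = 0.00029), and 0.55 without CD replicate 1. Rpn5 (FBgn0028690), another structural subunit, was at 248, 270, 293 and 271 CPM in CD and 311, 311, 321 and 320 CPM in HSD. It rose by 0.22 (SE 0.06, 1.17-fold, edgeR adjusted p = 0.0114), about as little as Rpn2. The other 6 lid subunits rose by between 0.25 (Rpn8) and 0.36 (Rpn6 and Rpn11). Rpn11, the metalloprotease that cuts off the ubiquitin chain, was among the latter, with a mean of 172 ± 11.9 CPM on CD and 221 ± 12.1 CPM on HSD (SD, n = 4).

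The paralogues behaved differently from one another. Of the 15 in the file, 5 passed the filter on low counts. Of these, 2 rose, both encoding ATPases of the base, and none fell, against 25.9% of all genes tested that were higher. Rpt3R (FBgn0037742; chromosome 3R, 9754735 to 9756510 in BDGP6) was at 17.9, 10.3, 10.5 and 13.3 CPM in CD and 52.3, 51.9, 49.2 and 32.3 CPM in HSD. HSD replicate 4 was the lowest of its diet and still above CD replicate 1, the highest of the other. The log2 fold change was 1.84 (SE 0.22, 3.58-fold, edgeR adjusted p = 3.84e-05). Rpt3R overlaps Alg12 by 20 bases on the opposite strand.

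Rpt6R (FBgn0039788; chromosome 3R, 30582198 to 30583697 in BDGP6) was at 2.23, 4.96, 5.20 and 5.63 CPM in CD and 32.2, 24.8, 31.2 and 21.7 CPM in HSD. The lowest HSD library was several times the highest CD library. The log2 fold change was 2.60 (SE 0.28, 6.04-fold, edgeR adjusted p = 2.29e-05), which lay at the 98.2 percentile of all genes tested. In 19 of 19 alternatives, scaling to ribosomal protein genes included, both genes were called higher, with log2 fold changes of 1.47 to 2.18 for Rpt3R and 2.24 to 2.75 for Rpt6R.

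Relative to the subunit each resembles, both paralogues were higher in HSD. Per kb, Rpt3R was at 9.06%, 5.44%, 5.93% and 6.52% of Rpt3 in CD and 20.6%, 21.7%, 18.5% and 13.8% in HSD. Rpt6R was at 0.994%, 2.18%, 2.13% and 2.31% of Rpt6 in CD and 10.2%, 8.20%, 9.54% and 7.47% in HSD. The diets did not overlap for either pair. Rpt3 and Rpt6 themselves rose by 0.37 and 0.40. By the shares above, most transcripts of each pair still came from the gene without the suffix in both diets. How the authors' counting treated reads that match both members of a pair is not given in the sources used here, so these shares are uncertain.

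**Figure D4:**
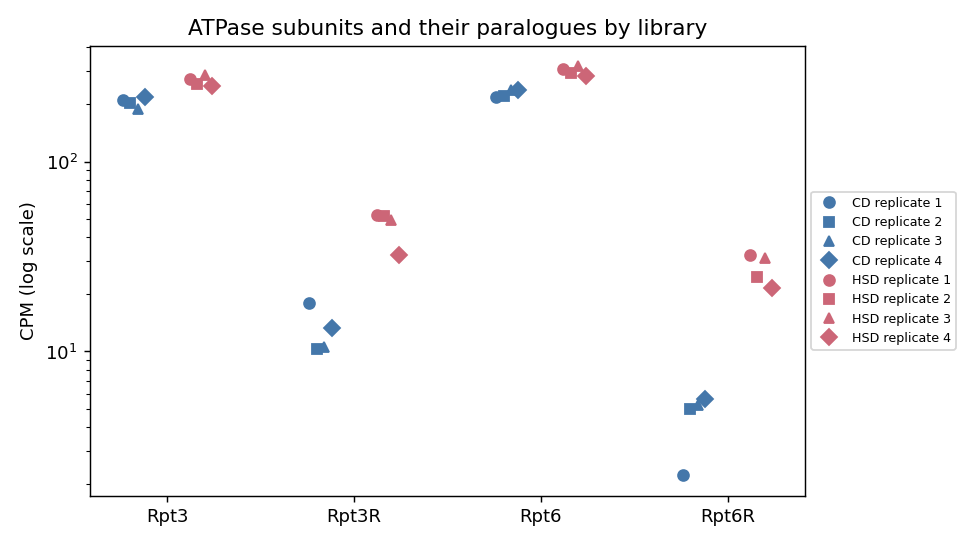
CPM of Rpt3, Rpt3R, Rpt6 and Rpt6R in each library, on a log axis, with symbols for replicates 1 to 4 and a colour for each diet. Rpt3R and Rpt6R are far below Rpt3 and Rpt6 in CD and move up by 3.58-fold and 6.04-fold in HSD, while Rpt3 and Rpt6 move up by 1.29-fold and 1.32-fold.

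Testis markers were examined beside these genes, since such paralogues are known for that tissue. Of 12 markers in the file, 3 passed the filter and 2 rose, against 25.9% of all genes tested: mia (14.5 ± 2.20 to 29.3 ± 4.03 CPM, SD, n = 4, log2 fold change 1.02, edgeR adjusted p = 0.000339) and topi (log2 fold change 1.89, SE 0.58, edgeR adjusted p = 0.0189), which encode testis transcription factors. In CD topi was near the floor, with 9, 11, 29 and 10 counts, against 65, 75, 71 and 38 in HSD. Its HSD libraries carried it past the filter, so the count of 2 was partly set by the filter. The summed level of the list, most of it from mia, was 15.35 to 18.55 CPM in CD and 30.72 to 38.83 CPM in HSD. The third tested marker, bam, had a log2 fold change of 0.41 and did not pass (edgeR adjusted p = 0.729). Of the 9 markers below the filter, can had 0, 8, 29 and 11 counts in CD and 0, 2, 0 and 0 in HSD, Mst87F had 0 in CD and at most 17 in HSD, and aly, sa and Mst84Da were listed at 0 in all 8 libraries. The part of germline tissue in the rise of Rpt3R and Rpt6R was not tested.

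The other 3 tested paralogues did not pass. Rpn13R (FBgn0029745) was at 5.11, 1.24, 1.20 and 1.33 CPM in CD and 1.07, 0.268, 0.611 and 0.432 CPM in HSD. All HSD libraries were below all CD libraries, which was so for 25.6% of all genes tested, but CD replicate 1 stood far above the other 3. The log2 fold change was -1.87 (SE 0.77, edgeR adjusted p = 0.0634), and -1.04 without CD replicate 1. Prosbeta4R2 (FBgn0031443) was at 1.15, 0.733, 12.5 and 1.22 CPM in CD and 1.87, 2.04, 1.17 and 2.67 CPM in HSD. A single library, CD replicate 3, set its log2 fold change of -1.01 (SE 0.88, edgeR adjusted p = 0.372), which became 0.92 without that library. Prosalpha1R (FBgn0050382) was at 0, 1.35, 0.801 and 0.212 CPM in CD and 1.87, 1.93, 0 and 0.0721 CPM in HSD, and its log2 fold change of 0.70 (SE 1.34, edgeR adjusted p = 0.693) ranged from 0.13 to 1.51 with each library left out in turn.

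Of the 10 paralogues that did not pass the filter, Prosalpha3T, Prosalpha4T2, Prosbeta5R1 and Rpn12R had no count in any library. Prosalpha6T had 15 counts in CD replicate 3 alone, Prosbeta2R1 had 6 in CD replicate 2 alone, Prosbeta5R2 had 3 in HSD replicate 2 alone and Rpt4R had 1 in HSD replicate 2 alone. Prosbeta2R2 reached at most 15 counts and Prosbeta4R1 at most 12. These values do not separate the diets. Of the 4 cytosolic ribosomal protein genes also listed at 0 in all 8 libraries, RpL37-2, RpL10Aa and RpS28a have a similarly named gene with counts. RpL15 has no such gene among those listed, so a gene at 0 was not read as silent.

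Genes that build, feed or regulate the proteasome had a smaller median fold change than its subunits. Of 21 such genes 19 were in the file and tested, and 6 rose and none fell, a share not far from the 25.9% of all genes. These calls depended on the scale: 3 genes were higher and 2 lower with total counts alone, and none was higher and 7 were lower with scaling to ribosomal protein genes. Their median log2 fold change was 0.14, within a range of -0.22 to 0.48. The largest rise was that of Usp14 (FBgn0032216), a deubiquitinating enzyme that docks on the base, at 145, 151, 165 and 157 CPM in CD and 219, 209, 220 and 213 CPM in HSD. With both groups narrow and apart, it rose by 0.48 (SE 0.06, 1.39-fold, edgeR adjusted p = 8.85e-05), which was within the range of the subunits.

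The Nrf-family factor cnc (FBgn0262975), named above as a regulator of proteasome genes, was at 204, 243, 222 and 229 CPM in CD and 254, 343, 289 and 278 CPM in HSD. HSD replicate 2 was high, and the diets did not overlap. The log2 fold change was 0.37 (SE 0.09, 1.30-fold, edgeR adjusted p = 0.00665). Its partner maf-S (45.7 ± 3.57 CPM in CD and 50.4 ± 4.83 CPM in HSD, SD, n = 4) had a log2 fold change of 0.14 (SE 0.10, edgeR adjusted p = 0.284). Its inhibitor Keap1 (19.7 ± 2.01 CPM in CD and 21.6 ± 1.63 CPM in HSD, SD, n = 4) also had 0.14 (SE 0.14, edgeR adjusted p = 0.436). Neither passed the test. Counts were made per gene and do not tell transcript forms of cnc apart. Transcript levels say nothing of cnc protein or its activity, which were not measured here.

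The proteasome activator REG (FBgn0029133), which can replace the regulatory particle on the core, was at 202, 230, 226 and 233 CPM in CD and 270, 274, 297 and 292 CPM in HSD. All HSD libraries were above all CD libraries, and the log2 fold change was 0.35 (SE 0.07, 1.27-fold, edgeR adjusted p = 0.00133). Pomp (FBgn0032884), a chaperone needed to assemble the core, was at 105, 106, 110 and 98.0 CPM in CD and 129, 118, 132 and 119 CPM in HSD. It rose by 0.24 (SE 0.07, 1.18-fold, edgeR adjusted p = 0.0153), less than any core subunit, and the call was lost without HSD replicate 3 (edgeR adjusted p = 0.0527) and with the upper quartile (0.0618), total counts (0.227) or ribosomal protein genes (log2 fold change -0.11, 0.273) as the scale. The other 2 genes called higher were Uba1, the ubiquitin-activating enzyme (0.29), and Ubqn, a shuttle for ubiquitylated proteins (0.30). Of the genes that encode ubiquitin, chosen after their values were seen, the polyubiquitin genes Ubi-p63E (log2 fold change -0.02, edgeR adjusted p = 0.915) and Ubi-p5E (-0.22, edgeR adjusted p = 0.122) did not pass. Of those that encode it fused to a ribosomal protein, RpS27A rose by 0.28 (edgeR adjusted p = 0.00161) and RpL40, with 0.18, did not pass (edgeR adjusted p = 0.0527).

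**Figure D5:**
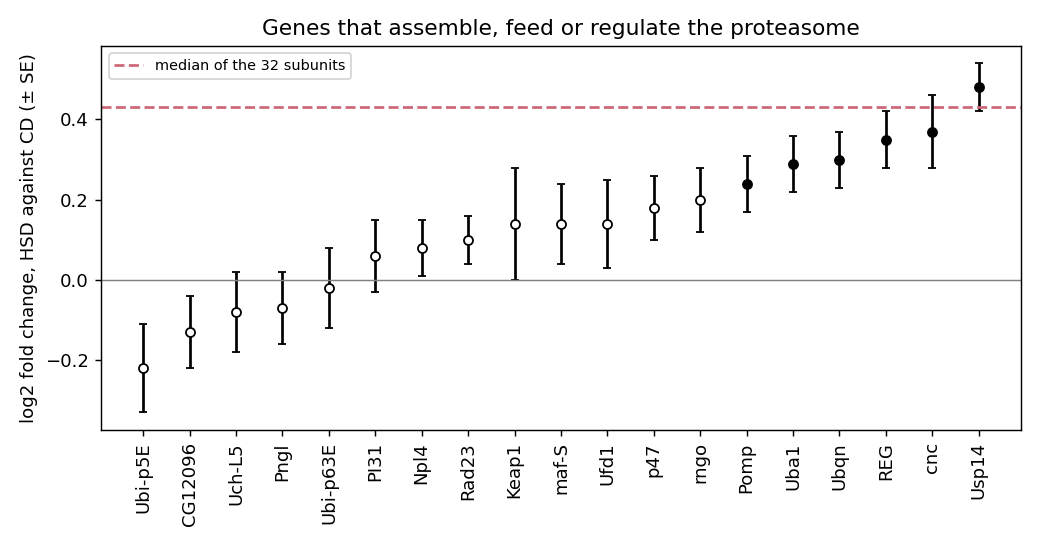
Log2 fold change of HSD against CD, with SE bars from the edgeR fit, for the 19 tested genes that assemble, feed or regulate the proteasome. Filled symbols passed the test. The dashed line is the median of the 32 subunits, 0.43, and only Usp14 lies above it.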

How the data were processed

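The authors trimmed paired reads of a stranded mRNA library with Trim Galore 0.4.4, used TopHat2 2.0.11 for alignment to dm3, and counted reads over the genes of an Ensembl annotation with featureCounts. The strand setting and the treatment of reads with several alignments are not given in the sources used here. The table they deposited held whole counts for each gene with no scaling. Symbols came from a table of gene names, which matched 15002 of the 15682 identifiers (95.7%). Exon lengths and neighbours came from the BDGP6 annotation, another build, and no coordinate was converted. Of the 32 subunits, 13 overlap an exon of another gene, all on the opposite strand.

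The 9257 genes that passed filterByExpr were normalised by TMM (trimmed mean of M values) and tested on diet, two-sided, by the quasi-likelihood test of edgeR 4.0.16 in R 4.3.3, with Benjamini-Hochberg adjustment over all of them and a threshold of 0.05. The study used DESeq2, which was run here as an alternative. CPM used the library size after TMM and a scale of 1000000, and CPM per kb divided this by exon length. Each SE was obtained as the absolute log2 fold change over the square root of F. The test was first run on simulated counts. No 2 libraries of a diet agreed within sampling noise (chi-square per degree of freedom of at least 11.5). The reads carried no molecular identifiers, so counts are not counts of molecules.

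Members and lists were chosen with earlier results of these data known. Full values were given for the 3 catalytic subunits, the largest and smallest rise in each subgroup, any subunit not called, every tested paralogue, the partner genes with the 3 largest called changes in each direction, and cnc, Keap1, maf-S and Pomp. TER94 and Sem1 of the partner list were not analysed here. Alternatives were scaling by total counts, by ribosomal protein genes, by the upper quartile, by DESeq2 size factors or by TMM without the subunits, other count filters, DESeq2 1.42.0, limma-voom (limma 3.58.1), a threshold of 0.01, each library left out, CD replicate 1 and HSD replicate 4 left out together, and the replicate block. Figures were drawn with matplotlib 3.10.9.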

Additional observations from a re-analysis of the deposited data

Results flagged for a closer look

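In 6 of 118 sets of 4 libraries of a diet, 1 library stood apart by Dixon's test, and chance alone marks about 1 set in 20. For Prosalpha3, CD replicate 1 was low (150 CPM against 179 to 181 CPM, a gap of 0.959 of the range). For Rpn2, the same library was low (357 CPM against 430 to 442 CPM, 0.86 of the range). For Rpn13R, it was high (5.11 CPM against 1.20 to 1.33 CPM, 0.968 of the range). For Rpn9, CD replicate 2 was low (239 CPM against 255 to 257 CPM, 0.895 of the range). For Prosbeta4R2, CD replicate 3 was high (12.5 CPM against 0.733 to 1.22 CPM, 0.958 of the range). For Rpt3R, HSD replicate 4 was low (32.3 CPM against 49.2 to 52.3 CPM, 0.843 of the range), and without it the log2 fold change was 1.98.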

How the results depend on the processing

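Of the 32 subunits, 25 to 31 were called higher under every alternative but scaling to ribosomal protein genes, which gave 5 (4 core, 1 regulatory). On that scale the following had a log2 fold change with the opposite sign: Prosalpha2 -0.01, Rpn2 -0.13, Rpn3 -0.09, Rpn5 -0.12, Rpn8 -0.09, Rpn9 -0.04, Rpn12 -0.01, Rpn13 -0.05, the lid median -0.02, Pomp -0.11, Ubqn -0.04, Uba1 -0.06, maf-S, Keap1 and Ufd1 -0.21 each, Npl4 -0.27, p47 -0.17, rngo -0.15, PI31 -0.29 (adjusted p = 0.018), Rad23 -0.25 (adjusted p = 0.0273) and REG, just below 0.00. It moved the share of calls over all genes that were higher from 49.8% to 21%, and total counts alone moved it to 38.1%. Leaving out each library in turn gave 30 to 31 subunits, 5 to 8 partner genes called in either direction and 4387 to 4999 genes in all. Rpn13R passed with DESeq2 (log2 fold change -1.91, adjusted p = 0.0284), total counts (-2.01, 0.049) and ribosomal scaling (-2.27, 0.0301). Prosbeta4R2 was 0.92 without CD replicate 3 and 0.18 with the replicate block, and Prosalpha1R was -0.07 with the block and -0.04 with limma-voom. The replicate block gave 31 subunits and 4609 genes in all, against 4823. Libraries with the same number did not deviate together (r from -0.152 to 0.075 over genes), so the numbers were not read as pairs. The depth is enough for each subunit, but 10 of the 15 paralogues had too few counts to test.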
